A study of Mus musculus with 6 samples.

Results

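The chromatin regulators and histones of mouse mammary tumour cells are described here through 101 probe sets of 69 genes, out of 5604 probe sets that carry a gene symbol and 45037 probe sets in all. A probe set is a group of short probes on an expression array that reads out 1 transcript. Members were chosen by the start of their deposited symbol, which takes in the histone acetyltransferases (Crebbp, Ep400, Myst), the deacetylases and their corepressors (Hdac, Sin3, Ncor), the chromatin remodellers (Smarc, Arid, Chd), the bromodomain proteins (Brd), the lysine methyltransferases (Setd, Suv, Ehmt, Mll), the demethylases (Jarid, Jmjd), the DNA methylation genes (Dnmt, Mbd) and the histones (Hist, H2af, H1f). A symbol was deposited for no probe set with a deposited p of 0.05 or more in the comparison of Akt1 knockout with Akt1 wild-type lines. The members were therefore selected on this same comparison, and each difference given below is a description of these arrays and not a test.

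The study compared 3 mouse lines of the genotype akt1(+/+) (wild type, lines 31, 101 and 102) with 3 of the genotype akt1(-/-) (knockout, lines 72, 75 and 116), and each line was hybridised to 1 array. Akt1 is a protein kinase that relays growth factor and PI3-kinase signals. All 6 lines came from mammary tumours that arose in mice with an ErbB2 oncogene driven by MMTV, a viral promoter active in mammary epithelium, so that ErbB2 is a shared background of both genotypes. The tumours were digested with collagenase, fibroblasts were reduced by letting them attach to a dish, and the cells were kept for 25 passages in medium with serum, insulin, EGF and cholera toxin. The labels do not say whether the lines of a genotype came from separate animals, and they do not describe the deleted part of Akt1. In lines measured in bulk, fewer cells of a type and less RNA per cell cannot be told apart.

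DNA in the nucleus is wrapped around histones, and enzymes add acetyl and methyl groups to histone tails (writers), remove them (erasers) or bind them (readers). Acetylation by enzymes such as CBP opens chromatin and goes with transcription, deacetylases held in NCoR, Sin3 and NuRD complexes reverse it, and the SWI/SNF, ISWI and CHD remodellers use ATP to slide or evict nucleosomes. In mammary epithelium these proteins serve as cofactors of steroid receptors and lineage factors, and genes of the SWI/SNF and MLL families are often mutated in tumours.

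The label was checked against the symbols. All 69 symbols were found in RefSeq's mouse genes (assembly GRCm38.p6), 43 as current symbols and 26 as older names, such as Jarid1a for Kdm5a, Jmjd3 for Kdm6b, Mll1 for Kmt2a and Myst3 for Kat6a. The prefixes also caught genes whose products do not modify chromatin. Mllt4 (now Afdn) encodes the junction protein afadin, Mllt7 (now Foxo4) a FoxO transcription factor, and Dnmt2 (now Trdmt1) a tRNA methyltransferase. They were kept as the rule asks and are counted with the groups of their prefix. The groups follow prefix and not function throughout. Arid3b, Arid4a, Arid4b and Arid5b are thus counted as remodellers, Mllt1 and Mllt3 as lysine methyltransferases and Jmjd4 as a demethylase, although they are described otherwise below.

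The promoters of the members were taken from RefSeq's table for GRCm38.p6, which held 74 promoters of 54 of the 69 genes. The 120 bases before the annotated transcription start are shown for those genes with an entry that carried the largest differences (Crebbp, Chd4, Smarca4 and the histone gene Hist1h2bp), for Jarid1b, the member with the largest difference in the other direction, and for the histone variant gene H2afz, which was higher in the knockout lines. Capitals mark the letters GGGCGG (a GC box, bound by Sp1-type factors), CCAAT (bound by NF-Y) and TATAAA (the TATA box) on either strand, so that CCGCCC and ATTGG are the same motifs read on the other strand. Crebbp lies on the minus strand at chr16:4213405-4213524, Smarca4 on the plus strand at chr9:21616049-21616168, and Chd4 has 2 listed starts on the plus strand, at chr6:125095861-125095980 and chr6:125096043-125096162. Jarid1b (Kdm5b) lies on the plus strand at chr1:134560058-134560177, Hist1h2bp (H2bc22) on the plus strand at chr13:21787368-21787487 and H2afz (H2az1) on the plus strand at chr3:137864367-137864486.
Crebbp: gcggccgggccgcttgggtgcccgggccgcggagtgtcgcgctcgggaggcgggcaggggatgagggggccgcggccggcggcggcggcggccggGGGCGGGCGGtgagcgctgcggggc
Smarca4: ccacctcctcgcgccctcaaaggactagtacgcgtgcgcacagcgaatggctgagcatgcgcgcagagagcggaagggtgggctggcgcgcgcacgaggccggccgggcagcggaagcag
Chd4, upstream start: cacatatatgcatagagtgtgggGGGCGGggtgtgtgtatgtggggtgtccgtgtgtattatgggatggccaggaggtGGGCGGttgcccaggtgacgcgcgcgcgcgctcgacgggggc
Chd4, downstream start: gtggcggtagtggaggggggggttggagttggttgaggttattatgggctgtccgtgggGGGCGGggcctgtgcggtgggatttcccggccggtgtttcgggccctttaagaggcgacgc
Jarid1b: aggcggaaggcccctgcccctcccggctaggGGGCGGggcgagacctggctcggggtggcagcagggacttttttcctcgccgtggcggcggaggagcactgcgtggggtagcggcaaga
Hist1h2bp: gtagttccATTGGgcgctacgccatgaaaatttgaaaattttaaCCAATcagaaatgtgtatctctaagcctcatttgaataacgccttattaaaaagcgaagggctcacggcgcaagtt
H2afz: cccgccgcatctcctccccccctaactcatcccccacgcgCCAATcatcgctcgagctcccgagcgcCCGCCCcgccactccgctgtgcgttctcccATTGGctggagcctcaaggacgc

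Over the 250 bases before the start, the member promoters were richer in G and C than the table as a whole, with a median GC content of 65.4% against 52.4% over all 32851 promoters and a median ratio of observed to expected CpG of 0.838 against 0.373. GGGCGG, itself made of G and C only, was found in 50 of the 74 member promoters (67.6%, against 32.7% of all promoters). CCAAT was found in 32.4% against 33.8%, and TATAAA in 8.11% against 12.4%. The histones differed from the other members in this respect, since 6 of their 8 promoters held CCAAT (75%), against 18 of 66 promoters of the other members. CGGAAG, an ETS-type motif, was found in 20.3% against 13.6%, and CACGTG, the E-box, in 6.76% against 6.02%. GTAAACA, the forkhead motif that FoxO factors can bind and that Akt signalling bears on through those factors, was found in 1 of the 74 (1.35%, against 3.17%). Each motif was searched as spelled on both strands, and the motifs do not contain one another. Genes with several listed starts count once per start. The promoters of all named genes were not counted as a background.

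Of the 101 member probe sets 76 were lower and 25 higher in the knockout lines. That is 75.2% lower, where 53.7% of all 5604 named probe sets were lower. The median difference of the members was -0.63 log2 units, against -0.27 over all named probe sets (1 log2 unit is a 2-fold difference). At least a 2-fold lower value was seen for 25 members, where 13.3% of all named probe sets were at least 2-fold lower, and a 2-fold higher value for 1 member, Jarid1b, where the figure over all named probe sets was 3.16%. The groups did not overlap for 101 of 101 members, but 99.9% of all named probe sets do not overlap, because the deposited p chose them. Counted by gene, 48 symbols had every probe set lower, 16 every probe set higher and 5 went both ways. Without Mllt4, Mllt7, Dnmt2 and the histones, a choice made after the values were seen, 72 of 87 probe sets were lower and 15 higher.

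**Figure D1:**
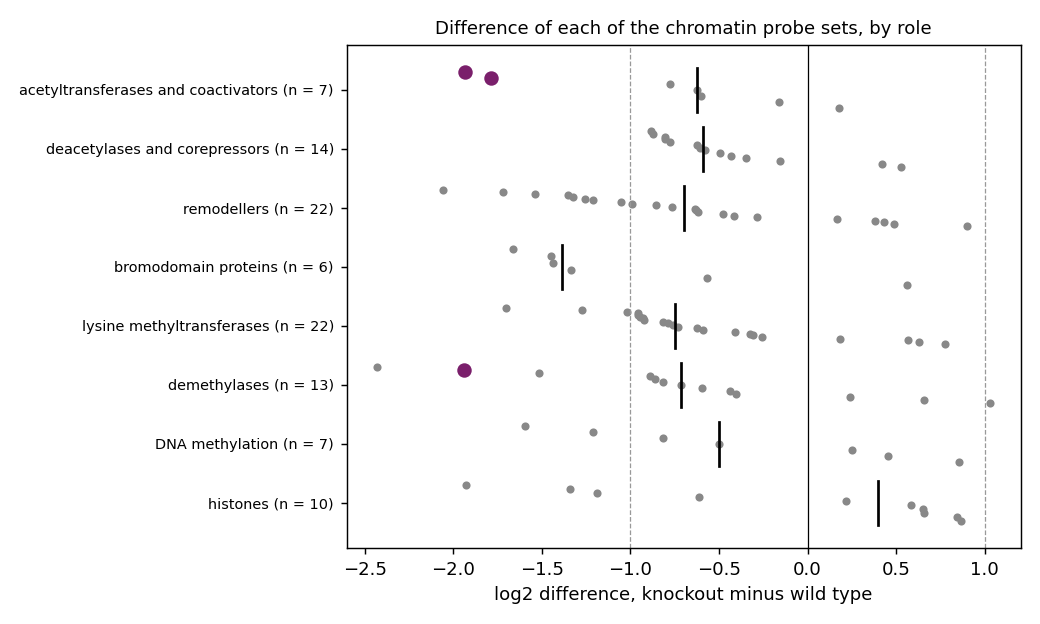
Each point is 1 of the 101 member probe sets, placed by its log2 difference between the knockout and wild-type means (x axis, log2 units) in the row of its role group. Black bars are group medians, dashed lines mark 2-fold, and the 3 large points are the probe sets with a limma adjusted p under 0.05. Every group has a median below 0 except the histones, at 0.40.

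The role groups, of 6 to 22 probe sets each, differed in how far down they lay, which was not tested. Over all named probe sets 53.7% were lower, 13.3% were at least 2-fold lower, and the median difference was -0.27. The bromodomain proteins, 6 probe sets of 4 genes, had the lowest median difference, -1.39 log2 units, with 5 probe sets lower and 4 at least 2-fold lower. The lysine methyltransferases (18 of 22 lower, median -0.75), the demethylases (10 of 13, -0.71) and the remodellers (17 of 22, -0.70) came next. The acetyltransferases and coactivators (6 of 7, -0.63) and the deacetylases and corepressors (12 of 14, -0.59) were as one-sided but closer to 0, and no deacetylase or corepressor probe set reached 2-fold. The DNA methylation genes had 4 of 7 lower (57.1%, near the share over all named probe sets), with a median of -0.50. The histones were the one group with more probe sets higher than lower, 6 of 10, and a median of 0.40.

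Over all 45037 probe sets, limma with Benjamini-Hochberg adjustment gave 3 member probe sets an adjusted p under 0.05, all lower in the knockout lines. No member was called higher. Of all probe sets 0.0977% were called lower and 0.00888% higher. Those 44 lower and 4 higher calls all lie among the 5604 named probe sets, from which the members come. An unadjusted limma p under 0.05 was seen for 91 of the 101, which the selection by the deposited p fixes to a large extent. The 3 calls are 2 probe sets of Crebbp, with adjusted p of 0.0346 and 0.0398, and 1 of Jarid1a, with an adjusted p of 0.0366. They depend on the lines entered. Without knockout line 75 there were 11 calls among the members, all lower and with the 3 among them, and over all probe sets 0.726% were called. The share among the named probe sets, the closer background, was not counted for that setting. Leaving out wild-type line 31, 101 or 102 or knockout line 72 or 116 left 0 calls among the members, and the adjusted p of the 3 probe sets then reached up to 0.186. In those settings 1 or 2 of all 45037 probe sets were called, against 48 with all lines. The loss of calls was thus one of the whole array and not of the members alone. Median centring of each array ended the call of 1436983_at, 1 of the 2 Crebbp calls.

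Crebbp encodes CBP, an acetyltransferase of histones H3 and H4 that many transcription factors recruit, the nuclear receptors among them. Probe set 1459804_at read 5.57, 5.21 and 5.18 log2 units in wild-type lines 31, 101 and 102 and 3.55, 3.47 and 3.14 in knockout lines 72, 75 and 116. Probe set 1436983_at read 9.92, 9.55 and 9.62 in the wild-type lines and 7.71, 8.18 and 7.84 in the knockout lines. All knockout lines lay far below all wild-type lines on both, with a gap between the groups of 1.63 and 1.37 log2 units, the widest and the next but one among the members. The remaining probe set, 1434633_at, read 8.23, 8.36 and 8.21 against 8.14, 8.13 and 8.05, a gap of 0.07, so that the transcript regions read by the 3 probe sets did not move alike.

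The other acetyltransferases moved less. Ep400 encodes the ATPase of the TIP60 acetyltransferase complex, and its probe set differed by -0.78 log2 units (SE 0.17). Myst3 and Myst4 encode the closely related acetyltransferases MOZ and MORF. Myst3 differed by -0.60, and the 2 probe sets of Myst4 by -0.63 and 0.18. Both Myst4 probe sets were dim, with means under the lower quartile of all probe sets, 3.80.

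Among the deacetylases and corepressors the largest difference was that of Hdac3, the deacetylase built into the NCoR complexes. It read 9.49, 9.18 and 9.38 log2 units in wild type and 8.66, 8.64 and 8.09 in the knockout lines, a difference of -0.89 (SE 0.20). The groups were apart by 0.52, with knockout line 116 the lowest. Its corepressor partner lay lower too. Ncor1, the scaffold that recruits it to unliganded nuclear receptors, differed by -0.78, -0.63, -0.61 and -0.35 on its 4 probe sets. Hdac1, a class I enzyme of the NuRD and Sin3 complexes, differed by -0.58, and the class IIa enzyme genes Hdac4 and Hdac5 by -0.50 and -0.80. The Sin3 scaffolds were the exception. Sin3b differed by -0.16, and of the 3 probe sets of Sin3a 1 differed by -0.43 and the others were 0.42 and 0.53 higher in the knockout lines.

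Chd4, the ATPase of the NuRD complex, which joins remodelling to deacetylation, had the largest difference of the remodellers. Probe set 1436343_at read 8.12, 7.44 and 7.94 log2 units in wild type and 5.45, 6.12 and 5.74 in the knockout lines, a difference of -2.06 (SE 0.25, limma adjusted p = 0.0523). The highest knockout line, 75, lay 1.32 below the lowest wild-type line, 101. A second probe set of Chd4 differed by -0.99. The other CHD genes were lower as well. Chd7 differed by -0.85, Chd9 by -0.77 and Chd1, which binds methylated lysine 4 of histone H3, by -0.63.

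Subunits of SWI/SNF, the remodeller that opens enhancers and promoters, were split. Smarca4 encodes BRG1, 1 of its alternative ATPases. Its probe set 1426805_at read 8.43, 7.84 and 8.04 log2 units in the wild-type and 6.24, 6.65 and 6.26 in the knockout lines, a difference of -1.72 (SE 0.20), with the groups 1.19 apart. The second Smarca4 probe set, 1426804_at, differed by -0.42, with a gap of 0.07 between the groups. Smarca2, which encodes the other ATPase, BRM, differed by -1.26 and -0.62 on its 2 probe sets. The core subunit genes were lower too. Smarcc1 (BAF155) differed by -1.35 and -1.21, and Smarcb1 (SNF5), a tumour suppressor in rhabdoid tumours, by -1.32. By contrast, Smarcd2 and Smarcd3, which encode alternative forms of the BAF60 subunit, were 0.49 and 0.17 higher in the knockout lines, and Arid2, which marks the PBAF form of the complex, was 0.90 and 0.43 higher. All 7 probe sets of the ATPases and of Smarcc1 and Smarcb1 were therefore lower, and all 4 of Smarcd2, Smarcd3 and Arid2 higher.

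Of the remaining genes counted with the remodellers, Arid5b encodes a DNA-binding partner of the demethylase PHF2. Arid5b read 4.77, 6.13 and 5.99 log2 units in wild type and 3.98, 4.11 and 4.20 in the knockout lines, a difference of -1.54 (SE 0.36). Wild-type line 31 lay closer to the knockout lines than to the other wild-type lines. Smarca5 encodes SNF2H, the ATPase of the ISWI complexes, and differed by -1.05, with knockout line 75 at 7.05 just below wild-type line 102 at 7.16. Arid4a and Arid4b, subunits of Sin3 complexes, differed by -0.48 and -0.63, and Arid3b, a DNA-binding factor, by -0.28. Smarcad1, which keeps heterochromatin silent through replication, was 0.38 higher in the knockout lines.

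**Figure D2:**
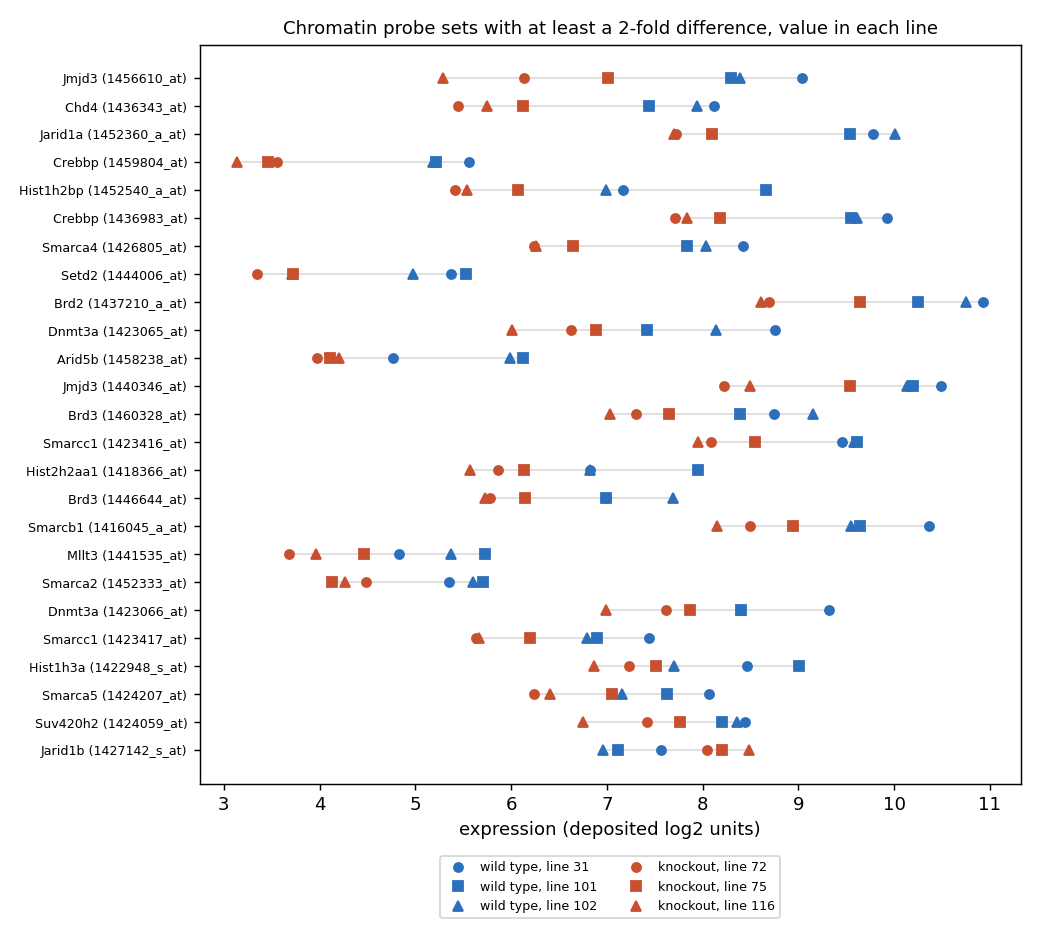
Value of each line (x axis, log2 units) for 25 of the 26 member probe sets that differed at least 2-fold, ordered from the most negative difference at the top. Blue points are wild-type and orange points knockout lines, the grey line spans all 6, and levels are not comparable between rows. The orange points lie left of the blue ones in every row but the last, Jarid1b, and knockout line 75 (orange square) is often the knockout point nearest the blue ones.

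Brd2 and Brd3 encode BET proteins, whose paired bromodomains bind acetylated histone tails, and both genes were lower on each of their probe sets. Brd2 read 10.93, 10.25 and 10.75 log2 units in the wild-type and 8.70, 9.64 and 8.61 in the knockout lines, a difference of -1.66 (SE 0.32). Knockout line 75 stood about midway, nearer to wild-type line 101 than to the other knockout lines. Brd3 differed by -1.44 and -1.34. Brd1, a scaffold of MYST acetyltransferase complexes and no BET protein, had 1 probe set at -0.57 and another 0.56 higher in the knockout lines.

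Among the methyltransferases Setd2, the enzyme that trimethylates lysine 36 of histone H3 along transcribed genes, had the largest difference. It read 5.38, 5.53 and 4.98 log2 units in wild type and 3.35, 3.72 and 3.71 in the knockout lines, a difference of -1.70 (SE 0.19, limma adjusted p = 0.0506). The gap between the groups was 1.26 log2 units. With an intensity trend in the variance model, Setd2 joined the 3 calls.

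The enzymes of lysine 20 of histone H4 were lower on each of their 4 probe sets. Setd8, which adds the first methyl group, differed by -0.63. Suv420h1 and Suv420h2, which add the further ones, differed by -0.79 and -0.31 and by -1.02. The lysine 4 enzymes were also lower in the main. Mll1 differed by -0.92, Mll3 by -0.82 and -0.73, and Setd1a by -0.25, while Mll5, a family member thought to lack methyltransferase activity, had probe sets at -0.59 and -0.41 and another that was 0.63 higher in the knockout lines. Ehmt2 (G9a), which methylates lysine 9 of histone H3, differed by -0.96 and -0.93. Setd5 had probe sets at -0.96 and -0.33 and another 0.57 higher.

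The translocation partners of MLL that the prefix brought in fell into 2 kinds. Mllt3 (AF9) and Mllt1 (ENL) read acylated histones within the elongation machinery, and they differed by -1.28 and by -0.94 and -0.76. Mllt4 (afadin) was 0.78 and Mllt7 (Foxo4) 0.18 higher in the knockout lines. Mllt7 had the smallest gap between the groups among the members, 0.04 log2 units.

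The demethylases held the largest difference of any member. Jmjd3 (Kdm6b), which removes the Polycomb mark on lysine 27 of histone H3 and is induced by inflammatory signals, read 9.04, 8.30 and 8.39 log2 units on probe set 1456610_at in the wild-type lines and 6.14, 7.01 and 5.29 in the knockout lines, a difference of -2.43 (SE 0.44). The knockout lines were spread over 1.72 log2 units, more than the wild-type lines. Its probe set 1440346_at read 10.49, 10.20 and 10.13 against 8.23, 9.54 and 8.50, a difference of -1.52 (SE 0.34), and the remaining one differed by -0.71.

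The JARID1 family, which removes methyl groups from lysine 4 of histone H3, did not move as one. Jarid1a (Kdm5a), first known as a partner of the retinoblastoma protein, read 9.78, 9.54 and 10.01 log2 units in the wild-type and 7.72, 8.10 and 7.70 in the knockout lines on probe set 1452360_a_at, with a gap of 1.44 between the groups. Its second probe set, 1437106_at, differed by -0.86. Jarid1b (Kdm5b), linked to luminal breast cancer, went the other way. It read 7.56, 7.12 and 6.96 in the wild-type and 8.05, 8.20 and 8.48 in the knockout lines, a difference of 1.03 (SE 0.20, limma adjusted p = 0.0999). The X-linked Jarid1c differed by -0.82, and the Y-linked Jarid1d, at a dim 3.04 to 3.40 over all 6 lines, was 0.24 higher.

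The lysine 9 and lysine 36 demethylase genes stayed under a 2-fold difference. Jmjd2b (Kdm4b), a cofactor of the oestrogen receptor, differed by -0.60 and -0.40, and Jmjd2c (Kdm4c) by -0.44, its probe set dim. Jmjd1c differed by -0.89 with an SE of 0.13. Jmjd4, which hydroxylates a translation release factor rather than a histone, was 0.66 higher in the knockout lines.

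Dnmt3a, which sets new DNA methylation, was lower on all 3 of its probe sets. Probe set 1423065_at read 8.75, 7.42 and 8.14 log2 units in wild type and 6.63, 6.88 and 6.01 in the knockout lines, a difference of -1.60 (SE 0.38). The wild-type lines were spread over 1.33 log2 units, and wild-type line 101 lay close above knockout line 75. The other probe sets differed by -1.21 and -0.81. Mbd4, a DNA repair glycosylase that binds methylated CpG, differed by -0.50. Dnmt1, the maintenance enzyme, was 0.25 higher on a dim probe set, and both probe sets of the tRNA enzyme gene Dnmt2 were higher, by 0.45 and 0.85.

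**Figure D3:**
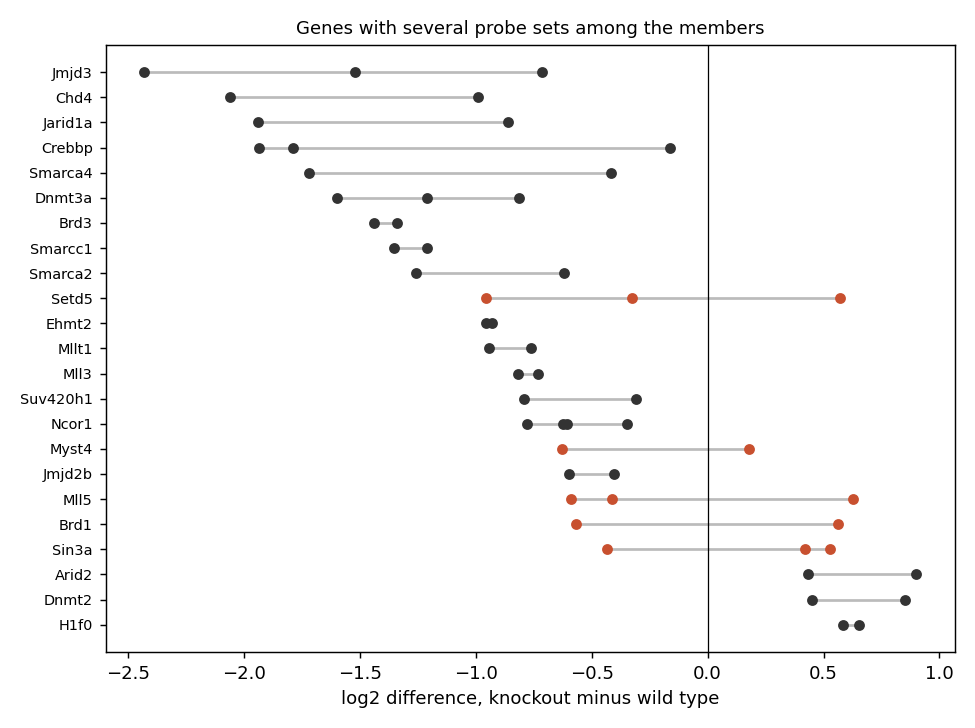
Log2 difference between the knockout and wild-type means (x axis, log2 units) of each member probe set for 23 of the 24 genes with more than 1. Black points belong to genes whose probe sets lie on 1 side of 0, and orange points to the 5 genes whose probe sets lie on both sides.

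Genes with several member probe sets allowed a look at agreement within a gene. Of 24 such genes 16 had every probe set lower and 3 every probe set higher (Arid2, Dnmt2 and H1f0). The other 5, Brd1, Mll5, Myst4, Setd5 and Sin3a, went both ways, which is 20.8%, against 26.7% of the 874 named genes with several probe sets. Agreement in direction did not mean agreement in size. The Crebbp probe sets ran from -1.93 to -0.16 log2 units, those of Smarca4 from -1.72 to -0.42, and those of Chd4 from -2.06 to -0.99, whereas those of Brd3, Ehmt2 and Smarcc1 lay close together, the last at -1.35 and -1.21. Which transcripts or 3' ends each probe set reads was not analysed here. A probe set without a difference would carry no symbol, so the agreement is counted only over probe sets that passed the deposited limit.

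The histones were the group whose direction stood apart. Most core histone genes are active in S phase and their mRNAs end in a stem-loop, while the replacement variants are made throughout the cell cycle from polyadenylated mRNAs. Of the replication-type genes, Hist1h2bp read 7.17, 8.66 and 6.99 log2 units in the wild-type and 5.41, 6.08 and 5.54 in the knockout lines, a difference of -1.93 (SE 0.45). Wild-type line 101 was well above the other wild-type lines. The same line was the highest on Hist2h2aa1, at 7.95 against 6.83 and 6.82, with the knockout lines at 5.86, 6.14 and 5.57, and on Hist1h3a, which differed by -1.19. Hist2h2aa2, the neighbouring copy of Hist2h2aa1 on chromosome 3, read 5.66, 5.39 and 5.10 in the wild-type and 6.09, 6.59 and 5.999 in the knockout lines, so that its probe set went the opposite way. Hist1h3d was 0.22 higher. These gene copies are near-identical in their coding parts, and which copy a probe set reads is uncertain.

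Of the variants, H2afz, which encodes H2A.Z at promoters, was 0.86 higher in the knockout lines (SE 0.24) at 11.41, 10.70 and 10.77 against 11.78, 12.13 and 11.57 log2 units. Its probe set carries the suffix (x) that the array maker gives to probes shared with other sequences, as does that of Chd1. The probe sets of Jarid1b, Hdac3 and Hist1h3a and 1449343_s_at of Sin3a carry another suffix, s. What else these probe sets read was not analysed here. H1f0, the linker histone of resting and differentiated cells, was 0.58 and 0.65 higher, and H2afj 0.66 higher. H2afy (macroH2A1), a variant of silent chromatin, differed by -0.61. The 5 probe sets of replication-type genes were thus 3 lower and 2 higher, and those of the variants 1 lower and 4 higher.

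**Figure D4:**
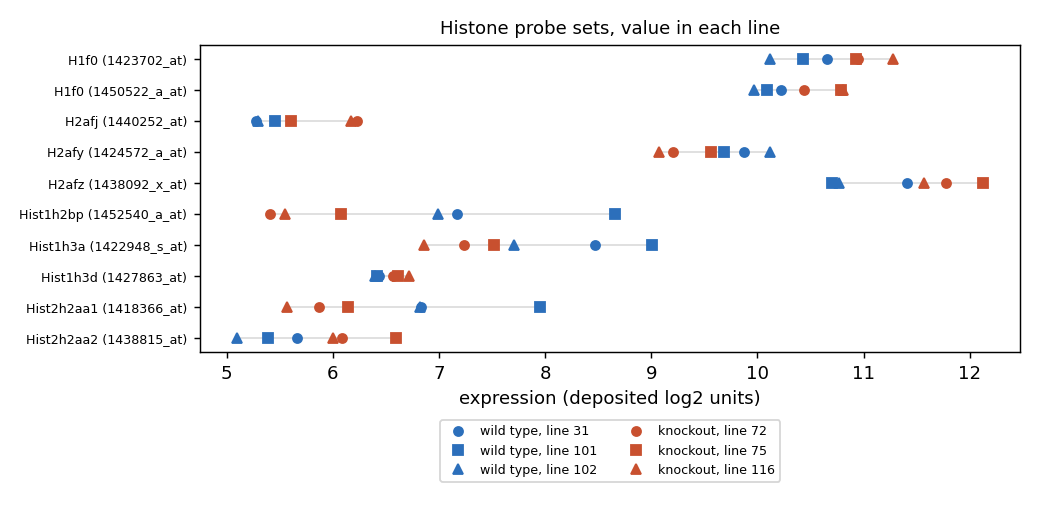
Value of each line (x axis, log2 units) for the 10 histone probe sets. Blue points are wild-type and orange points knockout lines, and levels are not comparable between rows. Wild-type line 101 (blue square) is the highest point on Hist1h2bp, Hist1h3a and Hist2h2aa1.

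The lines of a genotype were not equally far apart. For 49 of the 76 lower members (64.5%) the knockout line nearest to the wild-type lines was line 75, against 50.5% of all lower named probe sets. Line 72 was nearest for 20 and line 116 for 7. On the wild-type side line 31 was the highest for 39 of the 76 (51.3%, against 42.6% of all lower named probe sets), line 102 for 19 and line 101 for 18. The median level of the lower members was 7.34, 7.08 and 7.001 log2 units in wild-type lines 31, 101 and 102 and 6.10, 6.20 and 5.90 in knockout lines 72, 75 and 116. That of all lower named probe sets was 6.85, 6.78 and 6.78 against 5.90, 6.07 and 5.89. Both sets were chosen as lower, which fixes that they separate the genotypes. The 11 probe sets called without line 75 were the 3 called with all lines, both 2-fold probe sets of Jmjd3, the 2-fold ones of Chd4, Smarca4, Brd2 and Setd2, 1423416_at of Smarcc1 and that of Mll1.

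The array controls moved with the genotype as well. The 3' minus 5' signal of the Actb control, which widens as RNA is shorter or copied less far, was 2.88, 2.98 and 3.29 log2 units in wild type and 3.53, 3.48 and 3.44 in the knockout lines. The same measure for Gapdh was 3.30, 2.07 and 2.95 against 3.50, 3.18 and 3.89, with overlap. The bioC spike-in, added in equal amount to each sample on such arrays, read 9.03, 9.25 and 8.95 against 7.62, 7.86 and 7.96, while the bioB spike-in differed by 0.06. Array medians lay between 5.41 and 5.50. The part of these measures in the member differences was not tested. RefSeq gene spans on GRCm38.p6, which count introns and are not transcript lengths, were compared too. Among all named genes the median was 29.3 kb for those lower in the knockout lines and 24.4 kb for those higher. Among the members it was 72.7 kb for the 48 lower and 22.4 kb for the 16 higher. The higher ones include the histone genes Hist1h3d, Hist2h2aa2, H2afj, H1f0 and H2afz, with spans from 504 to 2436 bp. Among the lower ones Hist1h3a and Hist2h2aa1 are as short (502 and 556 bp).

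**Figure D5:**
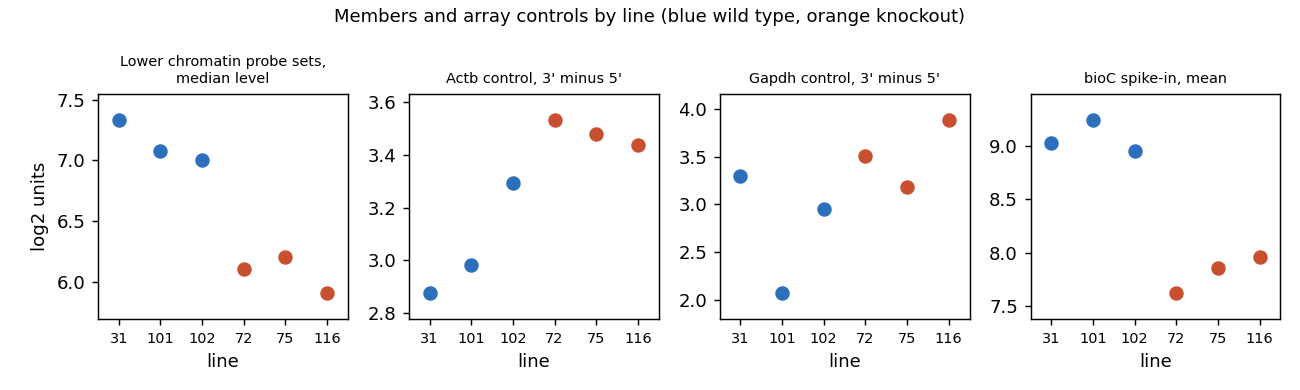
Median level of the 76 lower member probe sets in each line, beside 3 array controls, all in log2 units on their own axes (none starts at 0). Blue points are wild-type and orange points knockout lines. The Actb 3' minus 5' signal and bioC each separate the genotypes, and the Gapdh 3' minus 5' signal does not. The members separate them by selection, since they were chosen by their deposited p and for being lower.

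The targeted gene matched the labels. Akt1 differed by -5.42 log2 units on 1 probe set and by -3.02 on the other (limma adjusted p = 0.000405 and 0.0106). Of the markers of the cells such cultures could hold, 0 of 11 fibroblast, 1 of 7 endothelial, 3 of 10 leukocyte, 1 of 6 adipocyte, 2 of 6 basal and 4 of 9 luminal genes carried a symbol, and a marker without a symbol was not analysed here. The luminal markers Cldn3 (1.67), Epcam (0.80) and Krt8 (0.31 and 0.21) were higher in the knockout lines and Cldn7 lower (-0.48). The basal markers went both ways, Itgb4 at -0.56 and Krt5 at 0.60. Markers of other cell types were mostly lower, with the endothelial Plvap at -1.40, the leukocyte genes Laptm5 and Coro1a at -0.79 and -0.69 and the adipocyte gene Lipe at -0.62, while the leukocyte gene Cd8a was 0.87 higher. Their part in the member differences was not tested.

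Other chromatin genes were followed through 14 lists of 165 genes outside the prefixes, which had been drawn up with earlier results of these data known. A symbol was carried by 63 of them, and of these 41 were lower (65.1%, against 53.7% of all named probe sets) and 22 higher in the knockout lines, taking for each gene its brightest named probe set. None passed the limma threshold on that probe set. An unadjusted limma p under 0.05 was seen for 53, which the selection by the deposited p fixes to a large extent. With knockout line 75 left out 6 passed, where 0.726% of all probe sets were called. That share is over mostly unselected probe sets, and the share among the named ones was not counted for that setting. Of the 5604 named probe sets 44 were called lower. Over any of the 106 probe sets of the listed genes 1 was, a similar share, that of the heterochromatin protein gene Cbx1. It read 4.30, 4.34 and 4.36 log2 units in the wild-type and 2.52, 2.92 and 2.82 in the knockout lines (limma adjusted p = 0.0346), while the brighter Cbx1 probe set was 0.50 higher. The choice of probe set bears on these counts. Over every named probe set, a count added after the values were seen, 76 of 106 were lower (71.7%), and 10 of the 34 listed genes with several probe sets went both ways (29.4%).

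The counts by list are small and are read beside that share of 53.7%. Of 6 named SWI/SNF partners 4 were lower, led by Ss18 (-1.43), Pb1 (Pbrm1, -1.18) and Bcl7c (-0.78). Of the NuRD and Sin3 partners 4 of 6 were lower, with Mta2 at -0.82 and Rbbp4 at -0.77. The brighter Rcor3 probe set was 0.83 higher and the other differed by -1.18, and Rcor1 also went both ways. Among the 3 named COMPASS partners the menin gene Men1 differed by -1.43. Hcfc1 had probe sets at -0.48 and 0.21, and Ash1l was 0.45 higher on its brightest probe set while the other 3 differed by -0.97, -0.74 and -1.14. Of the other remodeller subunits 5 of 6 were lower, among them Baz2b (-1.07), Ino80 (-0.71) and Baz2a (-0.32). Of the other acetyltransferase genes 8 of 9 were lower, among them Ing3 (-1.26), Ncoa3 (-0.95) and Kat2b (-0.80).

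Both named arginine methyltransferases, Carm1 (-1.43) and Prmt5 (-0.87), were lower, as were all 3 named genes among the other demethylases, Kdm2a (-1.30), Kdm6a (-1.05) and Phf8 (-0.33). Of the histone chaperones 6 of 7 were lower, with the FACT subunits Supt16 at -1.29 and Ssrp1 at -0.70 and Ubn1 at -0.93. The other lysine methyltransferases were 3 lower and 2 higher, with Smyd4 at 1.10 on its brighter probe set and -0.49 on the other, Whsc1l1 (Nsd3) at -0.92 and Dot1l at -0.71.

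Polycomb proteins silence developmental genes. Of 27 such genes 8 were named and 6 of them were higher in the knockout lines, with Asxl2 0.87 and Bmi1 0.85 higher and a median of 0.53 log2 units, while Phc2 differed by -1.07. A second Asxl2 probe set differed by -0.86, and over every named Polycomb probe set 5 of 15 were lower. The heterochromatin genes had no settled direction. On the brightest probe sets 3 of 5 were higher, with Smchd1 0.83 and Cbx3 0.79 higher and Atrx at -1.57, but the second probe sets of Smchd1 and Cbx3 differed by -1.13 and -0.77, and over every named probe set 7 of 10 were lower. Both named high mobility group genes, Hmgb1 (0.66) and Hmgn1 (0.31), and the one named sirtuin, Sirt5 (0.24), were higher, and none of the 6 DNA demethylation genes was named. None of these list members other than the Cbx1 probe set passed, so these are descriptions of direction among genes already chosen by their deposited p.

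At the edge of the rule, the members with the largest deposited p were Smarcad1 (0.0498) and 1419102_at of Sin3a (0.0497). Probe sets just outside carry no symbol and were not analysed here. Of the 101 members 9 were dim, with a mean under the lower quartile of all probe sets (3.80 log2 units). They are 1 probe set each of Dnmt1, Ncor1, Jarid1d, Jmjd2b, Jmjd2c, Mllt1 and Arid4a and both of Myst4, and the remaining 92 passed that limit.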

How the data were processed

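RNA of 6 lines was amplified with a whole-transcript kit and hybridised to 1 array each, per the labels' protocols. The authors deposited log2 expression values per probe set, a p-value for each probe set, and a log2 difference, a B score and a symbol for part of those with a p under 0.05. The arrays were on a common scale, by tools not given in the sources used here. Each deposited p-value equals that of an unadjusted equal-variance test to within 3.2e-09. Array numbers, 3 per group, limit the precision (median SE of the members 0.18 log2 units), and p-values measure only the spread between these lines, which may not come from separate animals.

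The deposited log2 values were fitted without further normalization in limma 3.58.1 (R 4.3.3, lmFit and eBayes, knockout minus wild type, no covariate) over 45037 probe sets, with 64 controls left out and Benjamini-Hochberg adjustment over all of them. On simulated arrays, 3 against 3, the fit recovered 0%, 11.8%, 71.4% and 95.6% of probe sets with true log2 differences of 0.5, 1, 2 and 4. The simulated arrays had independent noise, few changed probe sets and no pattern shared across a line. The rates hold for that setting and may differ for the real arrays. The members and all lists were chosen with earlier results of these data known. The members are named by role group, apart from items not reported here, which stay in the counts and fits, with values of all lines for the calls, for up to 12 members in each direction with at least a 2-fold difference and for the largest difference of each role group. Up to 3 genes are named per list of other chromatin genes. A listed gene with several named probe sets is represented by the one of highest mean. Alternatives were quantile normalization, median centring, a filter on dim probe sets, other variance models, 1 value per gene and leaving out each line.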

Additional observations from a re-analysis of the deposited data

How the results depend on the processing

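Under quantile normalization, median centring and without each line in turn, 76 members stayed lower and 25 higher, the median difference ran from -0.59 to -0.71 log2 units and 22 to 33 members differed at least 2-fold. Leaving out a line could not change the 76 and 25, because the groups of every member do not overlap. The count of members with an adjusted p under 0.05, 3 with all lines, was 3 with quantile normalization and with dim probe sets left out, 2 with median centring, 4 with an intensity trend and 0 with the equal-variance test. Leaving out 1 line gave between 0 and 11 members, with 11 without knockout line 75 and 0 without each other line, and between 0 and 6 of the other chromatin genes. Over all 45037 probe sets 48 were called with all lines and 3 with the equal-variance test. Without knockout line 75 there were 327 such calls, and without each other line 1 or 2. The cause of these changes between left-out lines was not tested, beyond the loss of an array. Over every named probe set of the other chromatin genes (added after seeing the data) 76 of 106 were lower and 1 had an adjusted p under 0.05, against 41 of 63 and 0 by the brightest one. With a gene's probe sets averaged, 66 of 69 genes showed no overlap, which the selection by the deposited p fixes to a large extent. The share over all named genes averaged in this way was not counted. Without Mllt4, Mllt7, Dnmt2 and the histones (chosen after seeing the data) 15 members were higher. The adjusted p of 1436983_at of Crebbp ranged from 0.0362 to 0.186 over the alternatives, that of 1459804_at from 0.0297 to 0.174 and that of 1452360_a_at of Jarid1a from 0.0368 to 0.185. Of 1102 values of single probe sets under alternatives, 1099 moved by less than 1 SD of the replicates, 3 moved by more (Ncor1 and Smarcd3) and 0 changed sign. Much of this tally was fixed in advance. The other variance models and the dim filter leave each difference as it is, and leaving out a line cannot change a sign where groups do not overlap. No paired analysis was possible because the lines of the genotypes share no replicate numbers. Dim probe sets (9 members) are the ones whose differences signal over background limits most.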
